A study of Mus musculus with 37 samples.

Results

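Macrophages are tissue phagocytes that engulf microbes, dying cells and debris through scavenger, complement and lectin receptors and digest them in lysosomes. They depend on growth factor signals and on lineage transcription factors such as PU.1, they export the cholesterol they take up, and in the mouse they are recognised by the surface receptor F4/80 (encoded by Emr1) and the lysosomal glycoprotein CD68. Here the RNA of untreated mouse macrophages was set against that of 4 other untreated myeloid cell types, to describe which genes set the macrophage apart before any stimulus. All gene names with a value in the table were taken, and the members were the 6470 of 6509 genes whose value reached 10 in at least 1 of the 5 untreated groups. Each member was placed by the difference of its macrophage log2(value + 1) from the highest and from the mean of the other 4 cell types. The table covers only part of the mouse genes: of 455 genes on the gene lists below, 208 were in it. Genes absent from it could not be placed, and all genes below means all genes kept from this table.

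The 5 groups were 2 libraries each of macrophages, neutrophils, mast cells, sDCs (splenic dendritic cells) and eosinophils, 10 of the 37 samples of the series, and all cells came from C57Bl6cJ mice with no transgene or deletion named and neither IL-10 nor LPS added. The macrophages were thioglycollate-elicited peritoneal cells that had been left to adhere to plastic overnight, so they are an elicited and adherent population and not the resident cells of the unchallenged peritoneum. Neutrophils were separated from the bone marrow of pooled mice on a density gradient and kept overnight with GM-CSF, a growth factor used there to mature them, sDCs were enriched from spleen with magnetic beads, and mast cells and eosinophils were grown from bone marrow in culture. The same cell types were also treated with IL-10, an anti-inflammatory cytokine, with LPS, a bacterial endotoxin, or with both, each at 100 ng/ml, except that eosinophils had no IL-10 groups. Each group has a single deposited value per transcript, the authors' mean of its 2 replicates after normalisation, called the value below. No spread between replicates can therefore be given, no test was possible, and every difference below is a description of these means. A value also depends on transcript length, so values were compared between cell types for one gene and not between genes.

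The markers of the macrophage label were checked first. The value of Cd68 was 185724 in untreated macrophages, 2788 in neutrophils, 1147.5 in mast cells, 3544 in sDCs and 547 in eosinophils. It was thus 52.4-fold above the highest other cell type on the log2(value + 1) scale, a log2 difference of 5.71. A single Cd68 transcript sat at 185338, the highest value that any transcript has in each of the 18 groups of the table, together with a transcript of Lpl and one of Vim, so differences above this value cannot be read. Emr1 was at 21201 in macrophages, 4346 in neutrophils, 667 in mast cells, 2133.5 in sDCs and 14338.5 in eosinophils. Macrophages were the highest for Emr1 too, but by only 1.48-fold over eosinophils, which are known to carry F4/80. By the GENCODE vM1 annotation of NCBIM37 (mm9), Cd68 lies on chromosome 11 from 69477715 to 69479655 and Emr1 on chromosome 17 from 57498109 to 57622952, and each value is a sum over 3 transcripts. Of 8 macrophage markers listed, 3 were in the table, and their summed value was 212326 in untreated macrophages against 1919 to 14887 in the other 4 untreated groups.

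Markers of other cells were counted in the same libraries. Of 10 dendritic cell markers held, 1 was at least 2-fold above all other cell types in macrophages, beside 9.07% of all genes. It was Bst2, which many cells express. The summed values in untreated macrophages were 3418 for 9 neutrophil markers, 279.5 for 6 mast cell markers, 51 for 4 eosinophil markers, 158 for 6 B cell markers, 302 for 6 T and NK cell markers and 639.5 for 8 erythroid cell and platelet markers. Elane and Ly6g of neutrophils and Epx and Il4 of eosinophils were listed at 0. The sums in each list's own cell type were 323606 in neutrophils, 575576 in mast cells, 236412 in eosinophils and, for the dendritic cell list, 208402 in sDCs against 5840.5 in macrophages. Single genes made up most of some sums: Epx (185338) in eosinophils and, for the dendritic cell list, Ccr7 (185338) in sDCs and Bst2 (4952) in macrophages. Against the mean of the other 4 cell types, 2 of the 10 dendritic cell markers were at least 2-fold higher in macrophages and 6 at least 2-fold lower. The shares of all genes were 21.5% and 19.5%. Among the other groups, untreated neutrophils held 20677.5 for the eosinophil markers, and sDCs held 18328 for the T and NK cell markers.

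One list stood out in the opposite way. Of 18 mesothelial cell and fibroblast markers, 10 were in the table. In the macrophage group 8 of these were at least 2-fold above all other cell types, beside 9.07% of all genes. The 8 were Cdh11, Col1a2, Col3a1, Dcn, Gpm6a, Krt8, Pdgfra and Upk1b. Their summed value with Krt18 and Lum was 14192.5 in untreated macrophages and 38.5 to 142 in the other untreated groups. Col1a2 alone, at 9441.5, made up most of the sum in untreated macrophages. Over the 4 macrophage groups with and without treatment the sum lay between 12390 and 17088, and none of the 10 markers was at 0 in untreated macrophages, whereas 3 to 8 of them were listed at 0 in the other untreated groups. These genes are known as products of mesothelium and connective tissue rather than of macrophages. By the study's flow cytometry, part of the peritoneal cells lacked the marker Mac-1 before they were left to adhere. These markers moved with the macrophage label in every treatment, and their part in the results below was not tested. In bulk RNA, fewer cells of a type and less RNA per cell cannot be told apart.

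**Figure D1:**
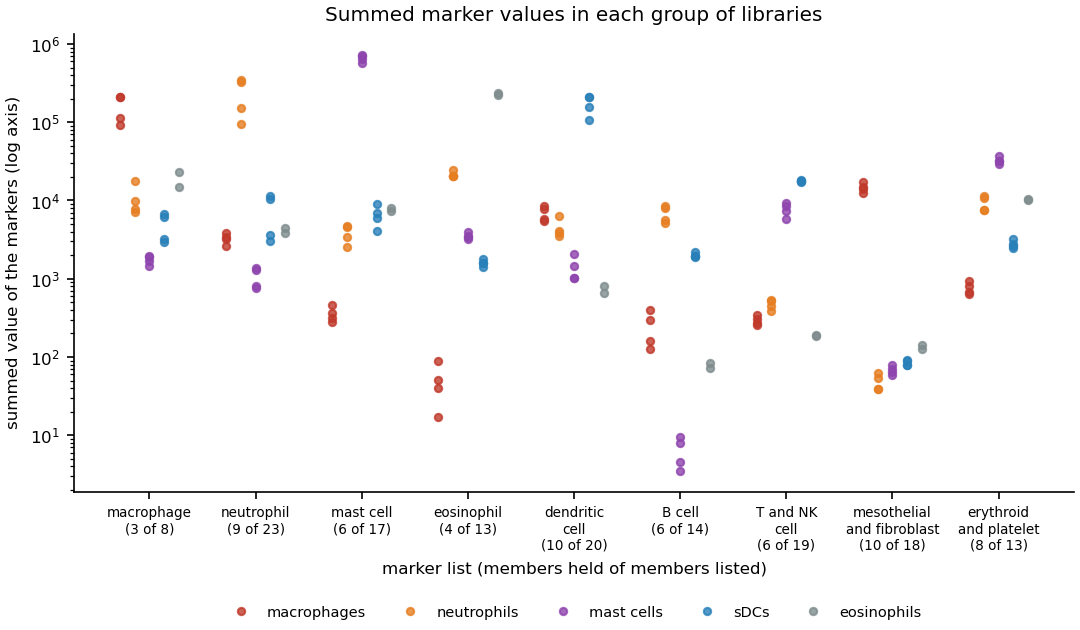
Summed values of 9 marker lists (y axis, log scale, normalised value) in each group of libraries; each point is 1 group mean per treatment, coloured by cell type, and the x labels give the markers held of those listed. Each cell type is highest for its own list, and the mesothelial and fibroblast markers lie at 12390 to 17088 in the macrophage groups and at 142 or less in the other groups. Single genes make up most of some sums: Cd68 in macrophages, Ccr7 in sDCs and Epx in eosinophils, each for its own list. Col1a2 makes up most of the mesothelial and fibroblast sum in the macrophage groups.

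Of the 6470 genes, 587 (9.07%) were at least 2-fold above the highest of the other 4 cell types in untreated macrophages, and 371 (5.73%) were at least 2-fold below the lowest. Against the mean of the other 4 log2 values, 1388 genes (21.5%) were at least 2-fold higher and 1264 (19.5%) at least 2-fold lower. By the same rule the genes highest in another cell type numbered 539 in sDCs, 435 in mast cells, 206 in neutrophils and 193 in eosinophils. Macrophages thus had the most such genes of the 5 groups, with sDCs close behind, and no error can be attached to either number. The rule asks for a margin over the nearest other group, and the groups are not equally alike. Across genes, the Pearson correlation of log2 values was 0.89 between neutrophils and eosinophils, and at most 0.74 between macrophages and another group. Its part in these counts was not tested. Mast cells had more genes below all others, 410, while eosinophils had 368, sDCs 231 and neutrophils 104.

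Among the 587 genes highest in macrophages, 317 were at least 4-fold and 132 at least 16-fold above the next cell type. In 155 of them every other cell type was under 10, and in 34 every other cell type was listed at 0. At the edge of the rule, 43 genes had a log2 difference from 1.0 to 1.1 and 38 had one from 0.9 to 1.0. The next highest cell type was sDCs for 211 genes (35.9%), neutrophils for 166 (28.3%), mast cells for 143 (24.4%) and eosinophils for 67 (11.4%). In single pairs, macrophages were at least 2-fold higher than neutrophils in 1532 genes and lower in 1361, with 1664 and 1384 against mast cells, 1560 and 1475 against sDCs, and 1660 and 1362 against eosinophils. The Pearson correlation of log2 values across the 6470 genes was 0.74 with neutrophils, 0.73 with sDCs, 0.70 with mast cells and 0.69 with eosinophils. Genes are not independent replicates, and all columns share one normalisation to the same distribution.

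**Figure D2:**
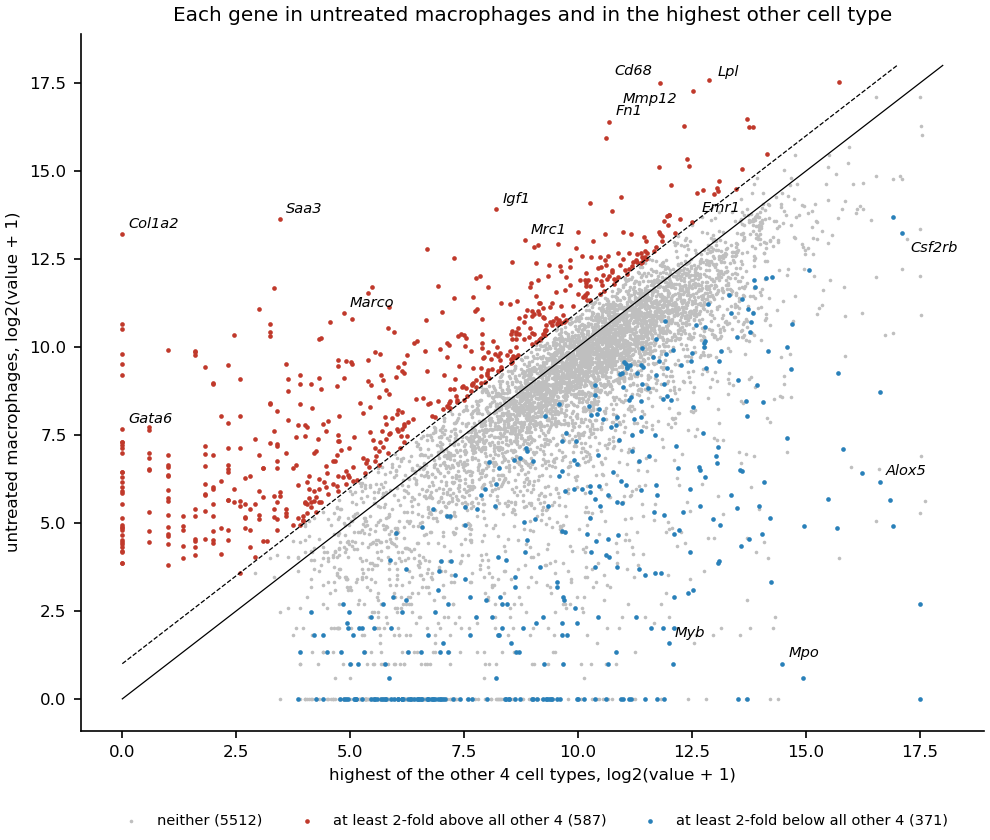
Value of each of the 6470 genes in untreated macrophages (y axis) against the highest of the other 4 untreated cell types (x axis), both as log2(value + 1) of the authors' group means; the solid line is equality and the dashed line 2-fold. The 587 genes at or above the dashed line are in red and the 371 genes at least 2-fold below the lowest other cell type in blue; Emr1 lies just under the dashed line, and Col1a2 and Gata6 lie at 0 on the x axis.

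The 20 genes with the largest margin over the other cell types, among those at 50 or more in macrophages, held 5 collagen chains and other genes of connective tissue. Col1a2, a chain of type I collagen, had a value of 9441.5 in macrophages and was listed at 0 in the other 4 cell types. Col3a1 had 1611, Col6a1 888 and Col6a2 726.5, all listed at 0 in the others, and Col5a2 had 1293 against at most 4.5. Sparc, a matrix-binding glycoprotein, had 3264 against at most 9, and Serpinh1, the collagen chaperone, had 2154 against at most 7. Such collagens are the characteristic products of fibroblasts. Pdgfra, a growth factor receptor of mesenchymal cells, had 940, Ctgf, a matricellular growth factor, had 932, and Aebp1 had 868, each with at most 2 in any other cell type. Des, the muscle intermediate filament protein desmin, was at 583, the transcription factors Gata6 and Hand2 at 201 and 156, the cofactors Vgll3 and Zfpm2 at 155 and 147, and the dicarboxylate transporter Slc13a3 at 1445, all listed at 0 in the other 4. Gata6 is known as a regulator of peritoneal macrophages and is also present in mesothelium. Of the 20 genes, 10 were listed at 0 in every other cell type, 5 were collagen chains and 3 were on the mesothelial cell and fibroblast marker list. All 20 kept a margin of at least 2-fold in each of the 3 treated comparisons, beside 334 (56.9%) of the 587 genes highest in untreated macrophages. The 20 were chosen for the largest untreated margins, the smallest being a log2 difference of 7.21. Their choice thus all but settled this outcome.

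The remaining genes of the 20 were Saa3, C4b, Ptgis and C530028O21Rik. Saa3, an acute phase serum amyloid, had 12611 in macrophages, 5 in neutrophils, 10 in mast cells, 0.5 in sDCs and 0 in eosinophils. C4b, complement component 4, had 965.5 against at most 1, and its near-identical copy makes the split of its reads uncertain. Ptgis, prostacyclin synthase, had 684.5 against at most 2.5. The value of C530028O21Rik was 1623 against at most 8.5. Each of these was close to absent from the other untreated cell types.

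The gene lists that follow hold 207 kept genes, of which 71 were highest in macrophages and 6 lowest, beside 9.07% and 5.73% of all genes. The lists were drawn up with earlier results of these data known, so their counts describe the table and are no independent evidence. The median log2 difference from the highest other cell type was -0.46 over the 207 genes and -0.76 over all 6470.

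**Figure D3:**
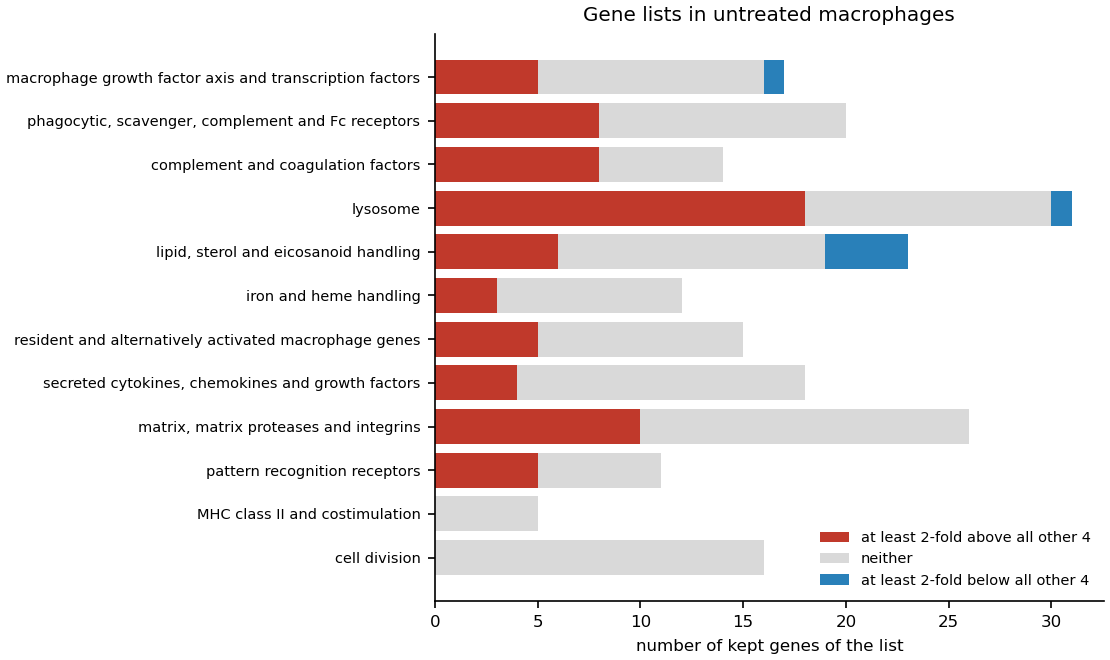
Number of kept genes of each of 12 gene lists (x axis) that were at least 2-fold above the highest of the other 4 untreated cell types (red), at least 2-fold below the lowest (blue) or neither (grey) in untreated macrophages. The lysosome list has 18 of 31 genes in red. The cell division list has none, nor has the list of MHC class II and costimulation, which holds no MHC class II chain.

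Growth factor receptors and transcription factors gave 5 of 17 kept genes as highest and 1 as lowest in macrophages. Bhlhe41, a basic helix-loop-helix repressor, had 4136.5 in macrophages, 63 in neutrophils and in mast cells, 230 in sDCs and 7 in eosinophils. Nr1h3, the oxysterol receptor LXR alpha, had 2098 in macrophages against 213 in sDCs, and Pparg, a nuclear receptor of lipid metabolism, had 1768.5 against 236. sDCs were the next cell type for these 3 genes. Csf2rb, the common beta chain of the GM-CSF, IL-3 and IL-5 receptors, was lowest in macrophages, at 9687.5 against 26721 to 140192 in the other cell types. Its reads may be shared with the near-identical Csf2rb2, and the neutrophils of this comparison had been kept in GM-CSF. Sfpi1, the gene of PU.1, was at 6707 in macrophages and lay within 2-fold of neutrophils, sDCs and eosinophils.

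Phagocytic receptors gave 8 of 20 genes as highest and none as lowest. Marco, a scavenger receptor for bacteria and particles, had 2002 in macrophages, 28 in sDCs and 0 in the other 3 cell types. Mrc1, the mannose receptor, had 8357.5 in macrophages, 454.5 in neutrophils, 453.5 in mast cells, 365 in sDCs and 5.5 in eosinophils. Lrp1, a large endocytic receptor for lipoproteins and protease complexes, had 79934 in macrophages and 5123 in sDCs, a 15.6-fold difference. Each of these separated macrophages from all 4 others by more than 15-fold. Vsig4, a receptor for complement C3 fragments, had 337 against at most 8.5, C3ar1, the receptor of C3a, had 41569 against 5364.5 in eosinophils, and Clec4e, the lectin Mincle, had 4917 against 1439 in neutrophils. Colec12 and Clec4d were the remaining genes called. The integrin alpha chain Itgam, the beta-glucan receptor Clec7a and the lectin Clec4n were instead highest in neutrophils.

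Complement and coagulation factors gave 8 of 14 genes as highest. Cfb, factor B of the alternative pathway, had 7042 in macrophages, 3 in neutrophils, 0.5 in mast cells, 102 in sDCs and 1 in eosinophils. Fn1, fibronectin, had 86548.5 in macrophages and 1638.5 in neutrophils, the next highest. Both were thus more than 50-fold above every other cell type in macrophages. C1s, a protease of the first complement complex, had 222 against 20 in eosinophils, and Thbd, the anticoagulant receptor thrombomodulin, had 1073 against 142 in sDCs. C4b, described above, C2 and F3 (tissue factor) were also called. C3 was highest in neutrophils, at 33750.5 against 7232.5 in macrophages.

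The lysosome list gave 18 of 31 genes as highest and 1, the protease Ctse, as lowest, with a median log2 difference of 1.46 from the highest other cell type. Beside Cd68, the cysteine protease cathepsin L (Ctsl) had 62505 in macrophages, 854 in neutrophils, 1560 in mast cells, 535.5 in sDCs and 221.5 in eosinophils. Legumain (Lgmn), the asparaginyl endopeptidase, had 35919.5 against 5538.5 in sDCs. Atp6v1a, the catalytic subunit of the proton pump that acidifies lysosomes, had 35555 in macrophages and between 2360.5 and 3509 in the other 4, which lay close to each other. Galc, the galactosylceramide hydrolase, had 5023 against 772 in neutrophils, and Ctsa, the protective protein cathepsin A, was 5.93-fold above the next cell type. The other genes called were Acp2, Acp5, Asah1, Atp6v1b2, Atp6v1h, Ctsz, Gla, Grn, Lipa, Npc1, Pla2g15 and Slc11a1. They comprise acid hydrolases, proton pump subunits, the cholesterol transporter of late endosomes and a metal ion transporter of the phagosome.

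Lipid and eicosanoid genes were divided, with 6 of 23 highest and 4 lowest in macrophages. Lpl, lipoprotein lipase, had 195852 in macrophages and 7552 in neutrophils, the next highest. Pltp, the phospholipid transfer protein, had 7565.5 against 558.5 in sDCs, and Abca1, the cholesterol efflux pump, had 9899 against 1027.5 in mast cells. Abcg1, Ptgis and Ptgs2 were the other genes called highest. These act in the uptake and efflux of lipids and in prostanoid synthesis. Alox5, the enzyme that starts leukotriene synthesis, had 71 in macrophages, 14759.5 in neutrophils, 100482 in mast cells, 296.5 in sDCs and 25425 in eosinophils. Alox12, Alox15 and Srebf2 were also lowest. Of the 3 lipoxygenases, Alox12 was listed at 0 in macrophages but at only 2.5 in sDCs and 4.5 in eosinophils, and its call ended with a pseudocount of 10, at a log2 difference of -0.32.

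Iron and heme genes gave 3 of 12 as highest. Steap3, a ferrireductase of endosomes, had 2448 in macrophages against 690.5 in mast cells. Slc11a2, the divalent metal transporter, was 2.92-fold and Aco1, the iron regulatory protein, 2.09-fold above the next cell type, and Aco1 fell just under the threshold (a log2 difference of 0.99) when the 5 groups were scaled to one median. Ftl1, the ferritin light chain, was at 141491 in macrophages and 186840 in sDCs, and copies of this gene make its reads uncertain.

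Genes described in resident or alternatively activated macrophages gave 5 of 15 as highest. Arg1, arginase, had 3358.5 in macrophages, 5 in neutrophils, 43.5 in mast cells, 15 in sDCs and 2.5 in eosinophils. Folr2, a folate receptor, had 1677 against 22.5 in mast cells. Fcna, ficolin A, had 730.5 against 32 in sDCs, and Prg4, the lubricant proteoglycan, had 557.5 against 28 in sDCs. With Saa3, these made up the genes called. Retnla and Mgl2 were not among them: Retnla had 93.5 in macrophages and 144 in eosinophils, and Mgl2 had 13.5 and was highest in neutrophils at 1387.5.

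Secreted factors gave 4 of 18 as highest. Igf1, insulin-like growth factor 1, had 15480 in macrophages, 5.5 in neutrophils, 294 in mast cells, 160.5 in sDCs and 16.5 in eosinophils. Cxcl14, a chemokine of epithelia and stroma, had 1386 against at most 8.5. Pdgfc had 281 against 69 in sDCs, and Grn, progranulin, had 23493 against 8502 in eosinophils. The inflammatory cytokine Tnf, at 712.5, was not highest in untreated macrophages, and neutrophils had 2191.

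Matrix genes, matrix proteases and integrins gave 10 of 26 as highest. Mmp12, macrophage elastase, had 158630 in macrophages, 4344.5 in neutrophils, 5892 in mast cells, 2476.5 in sDCs and 618.5 in eosinophils. Timp1, an inhibitor of matrix proteases, had 1190.5 against 19 in mast cells, Cav1, caveolin 1, had 787.5 against 25.5 in sDCs, and Itgb5, an integrin beta chain, had 7240 against 992.5 in sDCs. Mmp10 was called at a low value, 20.5 against 3. Itga5, Itgax, Mmp19, Sparc and Timp3 completed the genes called, while the gelatinase Mmp9 and the collagenase Mmp8 were highest in neutrophils.

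Pattern recognition receptors gave 5 of 11 as highest. The endosomal RNA sensors were among them: Tlr8 had 3352 in macrophages against 257.5 in neutrophils, Tlr7 had 2408 against 360 in sDCs, and Tlr3 had 264 against 26 in sDCs. Tlr13, the sensor of bacterial ribosomal RNA, had 12025 against 5792 in neutrophils, and Ly96, the LPS co-receptor MD-2, had 504 against 234 in sDCs. The last 2 passed by little, and Tlr13 fell to a log2 difference of 0.99 with the groups scaled to one median. Tlr1 and Tlr9 were highest in sDCs.

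Of 19 genes listed for MHC class II and costimulation, 5 were in the table, namely Cd40, Cd80, Cd86, Icosl and Ifi30. No MHC class II chain was among them, so MHC class II expression was not examined. None of these 5 genes and none of 16 cell division genes was highest or lowest in macrophages, beside 9.07% and 5.73% of all genes. Ifi30, the thiol reductase of antigen processing, had 9471 in macrophages and 16395 in sDCs, and the costimulatory gene Cd86 had 504 and 2344. Top2a, a topoisomerase of dividing cells, had 548.5 in macrophages and 9978.5 in eosinophils, and Kif11, a mitotic motor, had 166 and 3676. For both genes macrophages were below neutrophils and eosinophils, but Kif11 was lower in mast cells, at 73, and similar in sDCs, at 162.5. Against the mean of the other 4 cell types, 5 of the 16 cell division genes were at least 2-fold lower in macrophages and 1 at least 2-fold higher.

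**Figure D4:**
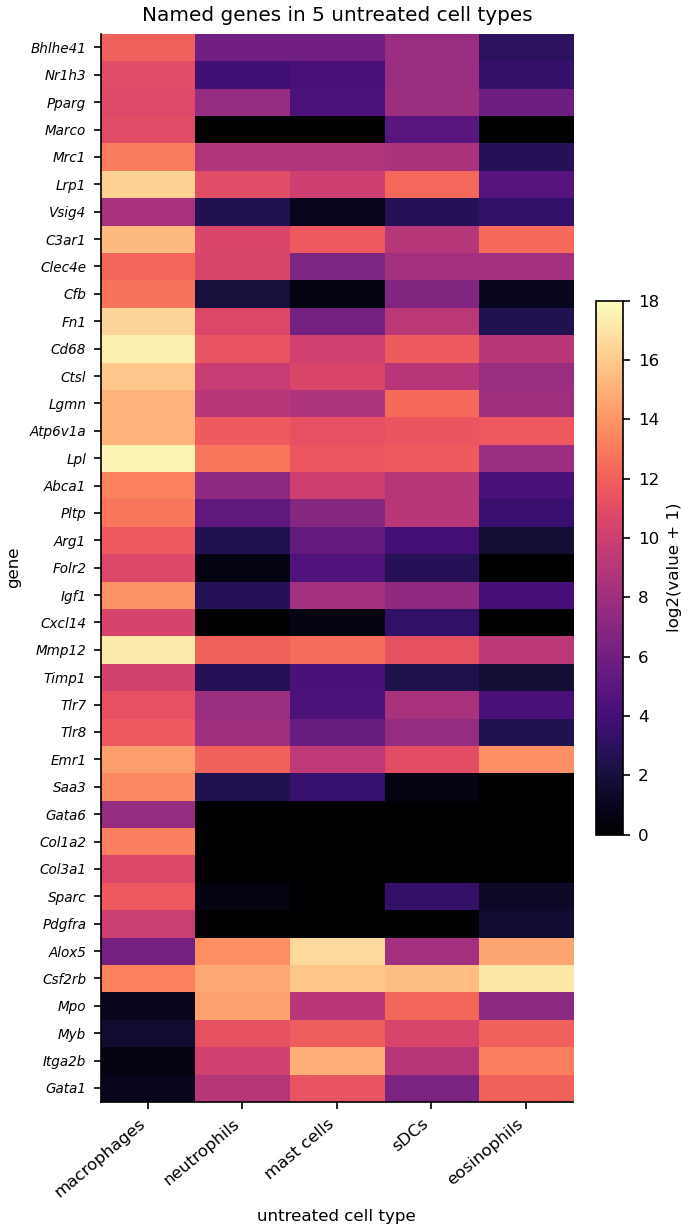
Values of 39 named genes (rows) in the 5 untreated cell types (columns), coloured by log2(value + 1) of the group means. Most rows are brightest in the macrophage column, Emr1 is nearly as bright in eosinophils, and the last 6 rows are darkest in macrophages, with the darkest fields for Mpo, Myb, Itga2b and Gata1.

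Of the 371 genes lowest in macrophages, 86 were listed at 0 there and 167 were under 10. The 10 with the largest margin, where every other cell type was at 50 or more, included regulators and granule proteins of progenitors and granulocytes. Myb, a transcription factor of haematopoietic progenitors, had 2 in macrophages, 2465.5 in neutrophils, 3694 in mast cells, 1438 in sDCs and 4059 in eosinophils. Gata1, a factor of the erythroid, mast cell and eosinophil lineages, had 1 in macrophages and 89 in sDCs, the lowest of the others. Mpo, myeloperoxidase, had 1 in macrophages, 149 in eosinophils and 22826 in neutrophils. The macrophages thus carried almost no RNA of these genes. Itga2b, an integrin alpha chain of megakaryocytes and mast cells, had 0.5 in macrophages against 534 to 31309.5 in the others, and Ikzf4, a zinc finger factor, had 1 against 253.5 to 1605.5. Prss34, Tespa1, Muc13 and Dnahc8 were listed at 0 in macrophages, and Rab44 had 29 against at least 1305.5. All 10 stayed at least 2-fold below the other cell types in each treated comparison, beside 155 (41.8%) of the 371. The 10 were chosen for the largest untreated margins, the smallest being a log2 difference of -5.44. Their choice thus all but settled this outcome.

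The 587 genes were then read in treated macrophages, in libraries that their choice had not used, against the other cell types under the same treatment. With IL-10, 511 of 578 genes kept (88.4%) were again at least 2-fold above the others, beside 9.5% of all genes. With LPS the number was 391 of 579 (67.5%), beside 8.35%, and with IL-10 and LPS 401 of 576 (69.6%), beside 8.96%. A margin of any size over the other cell types was seen in 571 of the genes with IL-10, 527 with LPS and 530 with both, beside 26.4%, 21.2% and 23.5% of all genes. With LPS the comparison was against 4 other cell types and with IL-10 against 3. Of the genes lowest in untreated macrophages, 280 of 368 (76.1%) were again at least 2-fold lowest with IL-10, beside 6.62% of all genes, 216 of 368 (58.7%) with LPS, beside 6.44%, and 215 of 362 (59.4%) with both, beside 6.68%. In all 3 treated comparisons 334 of the 587 (56.9%) were at least 2-fold highest and 155 of the 371 (41.8%) at least 2-fold lowest. No source used here says whether treated and untreated libraries shared the same cell isolates.

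Lysosome genes and connective tissue genes gave different counts under treatment, but they had begun at unlike margins. The median untreated log2 difference from the highest other cell type was 1.46 over the 31 lysosome genes. It was 5.66 over the 10 mesothelial cell and fibroblast markers. A gene with a larger untreated margin can lose more of it and still pass the limit. The counts therefore do not compare responses to treatment. Of the 18 lysosome genes called, 18 kept the 2-fold margin with IL-10, 8 with LPS and 11 with both. In the same order, 88.4%, 67.5% and 69.6% of all genes highest in untreated macrophages kept it. With LPS, and with both, 17 of the 18 still had their highest value in macrophages, the exception being Pla2g15. Among all the genes called, this held for 527 of 579 and 530 of 576. Of the 8 mesothelial cell and fibroblast markers called, all 8 kept the 2-fold margin in each of the 3. Atp6v1a went from 35555 in untreated macrophages to 35071 with IL-10, 11578 with LPS and 9332.5 with both, where neutrophils had 7911.5. Col1a2 was at 9441.5, 7847, 10567.5 and 9020 in the same order, within 1.5-fold in all 4 macrophage groups. Receptors and regulators varied in both directions. Mrc1 had 8357.5 untreated, 14121.5 with IL-10, 1998 with LPS and 4465 with both and was highest in macrophages throughout. Marco had 2002, 2009, 5425.5 and 4422.5, and was also highest throughout. Pparg had 1768.5, 1250, 143 and 136, and with LPS it lay under the 250.5 of neutrophils. Emr1 had 21201, 19354, 16808 and 13108, and with LPS eosinophils were higher, at 22514.5, and neutrophils had 14667.5. Saa3 had 12611, 14111, 70260 and 94804 in macrophages, and in neutrophils 5, 13.5, 4125.5 and 14657.5. The margin of Saa3 over the next cell type was thus 10.16 on the log2 scale untreated and 2.69 with both agents, although its macrophage value was higher.

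**Figure D5:**
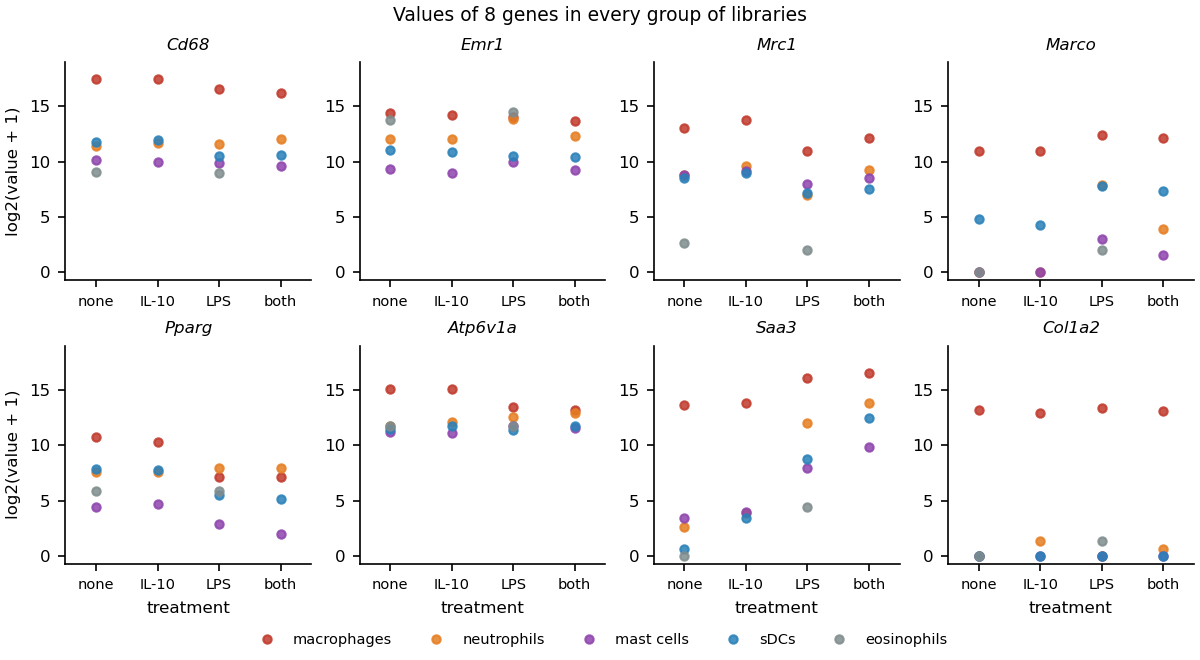
Values of 8 genes (log2(value + 1), y axis) in each cell type under each treatment (x axis); each point is 1 group mean, and eosinophils have no IL-10 groups. Cd68, Mrc1, Marco, Saa3 and Col1a2 are highest in macrophages under all 4 treatments, whereas Pparg and Emr1 are not with LPS.

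Promoter sequences were read for the same genes from RefSeq (GRCm38.p6), as the 250 bases before the first-listed start, and 5215 of the 6470 genes matched, 459 of them among the 587. Emr1 and Lpl had no entry. The letters of 5 sites were searched on both strands. The AP-1 site TGANTCA was in 9.80% of the promoters of genes highest in macrophages, in 8.22% of those of genes lowest there and in 4.87% of all. The E-box TCACGTG, bound by MITF and TFE factors, was in 6.75%, 4.11% and 4.91%, the MAF site TGCTGAC in 3.92%, 5.48% and 3.16%, the PU.1 site GAGGAAGT in 2.61%, 5.14% and 2.90%, and the C/EBP site TTGCGCAA in 0.218%, 0% and 0.268%. The AP-1 letters were more frequent in the high genes (45 of 459 promoters) and the low genes (24 of 292) than in all genes (254 of 5215). The MAF letters lay near the share of all genes in the high genes (18 promoters) and above it in the low genes (16). The PU.1 letters were more frequent only in the low genes (15 promoters) and the E-box letters only in the high genes (31 promoters). Apart from AP-1 these differences rest on few promoters, and no pattern is read from them. No error is attached to these shares. A match is no evidence of binding.

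The promoters of 8 named genes that hold a match, chosen after the matches were seen, are printed 5′ to 3′ along the gene, with the matching letters in capitals. Cd68 (chr11:69666171-69666420, minus strand) holds the AP-1 letters at -149 and -24 from the start, C3ar1 (chr6:122856158-122856407, minus strand) at -22, Igf1 (chr10:87860861-87861110, plus strand) at -37 and the collagen gene Col6a1 (chr10:76726045-76726294, minus strand) at -90, so these letters occur in a lysosomal, a receptor, a growth factor and a matrix gene. Mmp12 (chr9:7344147-7344396, plus strand) holds the PU.1 letters on the opposite strand at -88. Atp6v1a (chr16:44139260-44139509, minus strand) holds the E-box letters on both strands in overlap, starting at -132, and Bhlhe41 (chr6:145865421-145865670, minus strand) holds them on the opposite strand at -153. Mpo (chr11:87793534-87793783, plus strand), which was near 0 in macrophages, holds the PU.1 letters at -224.
Cd68: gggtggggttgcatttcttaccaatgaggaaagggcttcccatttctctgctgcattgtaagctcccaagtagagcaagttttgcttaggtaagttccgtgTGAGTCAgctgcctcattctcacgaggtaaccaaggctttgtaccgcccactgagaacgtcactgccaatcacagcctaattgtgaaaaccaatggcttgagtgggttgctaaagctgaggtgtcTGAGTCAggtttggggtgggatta
C3ar1: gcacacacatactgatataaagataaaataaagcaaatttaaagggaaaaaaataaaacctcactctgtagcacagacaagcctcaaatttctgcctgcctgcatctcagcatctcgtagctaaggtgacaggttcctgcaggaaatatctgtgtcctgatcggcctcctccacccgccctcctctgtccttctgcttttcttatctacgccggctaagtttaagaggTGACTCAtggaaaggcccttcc
Igf1: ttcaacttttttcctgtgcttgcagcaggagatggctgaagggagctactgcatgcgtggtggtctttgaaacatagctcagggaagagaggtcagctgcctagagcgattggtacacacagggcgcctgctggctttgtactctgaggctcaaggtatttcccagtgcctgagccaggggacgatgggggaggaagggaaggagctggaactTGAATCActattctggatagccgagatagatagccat
Col6a1: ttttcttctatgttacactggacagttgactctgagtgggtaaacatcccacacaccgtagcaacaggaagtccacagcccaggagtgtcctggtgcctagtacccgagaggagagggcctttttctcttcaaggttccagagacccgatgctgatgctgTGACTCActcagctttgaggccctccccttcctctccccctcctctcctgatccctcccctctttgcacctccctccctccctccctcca
Mmp12: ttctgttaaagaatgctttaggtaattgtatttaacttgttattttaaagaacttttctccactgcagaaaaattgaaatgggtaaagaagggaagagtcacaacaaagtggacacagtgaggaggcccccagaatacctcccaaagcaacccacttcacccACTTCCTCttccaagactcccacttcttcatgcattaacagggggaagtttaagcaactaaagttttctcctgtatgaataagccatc
Atp6v1a: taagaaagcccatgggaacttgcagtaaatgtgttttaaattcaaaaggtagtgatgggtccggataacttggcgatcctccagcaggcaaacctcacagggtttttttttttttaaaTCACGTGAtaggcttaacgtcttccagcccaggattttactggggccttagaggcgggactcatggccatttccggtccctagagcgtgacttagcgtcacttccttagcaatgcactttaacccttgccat
Bhlhe41: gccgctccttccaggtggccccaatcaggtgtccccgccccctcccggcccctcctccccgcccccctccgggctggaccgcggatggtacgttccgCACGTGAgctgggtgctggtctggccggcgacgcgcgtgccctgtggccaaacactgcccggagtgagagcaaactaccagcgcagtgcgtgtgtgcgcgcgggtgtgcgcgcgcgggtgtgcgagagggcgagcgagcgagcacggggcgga
Mpo: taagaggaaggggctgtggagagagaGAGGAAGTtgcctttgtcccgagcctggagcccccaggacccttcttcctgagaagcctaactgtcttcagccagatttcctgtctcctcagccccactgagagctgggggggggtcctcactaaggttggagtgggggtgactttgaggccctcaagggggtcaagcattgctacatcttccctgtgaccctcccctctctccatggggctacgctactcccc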

How the data were processed

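RNA-seq values of 37 mouse samples in 19 groups were used as the authors deposited them, as 1 table of 18 groups, and the CD4+ T cell sample has no column and was not used here. Per the labels and the study's methods, reads were aligned to mm9 transcripts with RSEM 1.2.1 and Bowtie 0.12.9, and tag counts were normalised for GC content with EDASeq. The table holds scores rather than counts, namely the authors' mean over 2 replicates on this normalised scale, so depth, intervals and replicate spread cannot be given. Replicates came from independent mice. The macrophage replicate 1 libraries are re-analyses of earlier data, and all sDC libraries and some mast cell libraries used another preparation kit, so preparation and cell type cannot be told apart. Every group has the same highest value, 185338, and all values are multiples of 0.5.

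Of 17015 complete lines (1 more was broken off), 22 had no gene name and were left out, and 16993 transcripts were summed to 6509 genes. Genes at 10 or more in any of the 5 untreated groups were kept, log2 values used a pseudocount of 1, and 2-fold (a log2 difference of 1) was the limit. Named were the 20 genes with the largest margin above the other cell types (at 50 or more in macrophages), the 10 with the largest margin below them (with the others at 50 or more), at most 6 called members per gene list with the member of highest macrophage value, and Emr1 and Cd68. A few genes outside this rule were named after their values were seen (Sfpi1, Itgam, Clec7a, Clec4n, C3, Retnla, Mgl2, Tnf, Mmp8, Mmp9, Tlr1, Tlr9, Cd86, Top2a, Kif11 and the remaining members called). Some members called are counted but not reported by name here. Members and lists were chosen with earlier results of these data known. Of the transcripts, 16791 were found in GENCODE vM1 (NCBIM37). Promoters matched by symbol or, for a retired symbol, by its only synonym, and a match on another chromosome was dropped (2 genes). In 3731 of 4677 genes compared, bases after the start were found as printed in a GENCODE transcript and in none as the reverse complement. The procedure was tested on simulated data. Python 3.11.15, pandas 2.3.3, numpy 2.4.6 and matplotlib 3.10.9 were used.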

Additional observations from a re-analysis of the deposited data

How the results depend on the processing

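Replicates could not be left out in turn, because the table holds group means. No paired analysis was possible because the table gives 1 mean per group. Of 118 counts recomputed under the alternatives, 101 stayed within 1.5 times of the printed count. With a pseudocount of 10 the genes lowest in macrophages numbered 242. With single transcripts in place of genes, 1575 were highest, 1838 lowest, 4152 above and 5074 below the mean of the others, and 1222 (IL-10), 922 (LPS), 887 (both) and 672 (all 3) were still highest by this limit in treated macrophages; these count transcripts, of which a gene may have several. With a limit of 4-fold the same counts were 317, 159, 798, 607, 283, 236, 241 and 211. A pseudocount of 0.1, a minimum of 50 or none, the highest transcript per gene, scaling to one median, and leaving out any 1 of the other cell types moved none of these counts by over 1.5 times. Of 857 recomputed differences of 78 named genes, 845 stayed past the limit and 0 changed sign. Alox12 dropped out with a pseudocount of 10 and Aco1 and Tlr13 with scaling to one median. With the limit at 4-fold 9 dropped out. Means of 2 libraries set how firmly any of this can be read: a gene near the limit may lie on either side of it.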

Other observations

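Gene families picked after the values were seen, by the start of their symbol, gave further counts. Of 10 vacuolar ATPase subunits, which pump protons into lysosomes, 6 were at least 2-fold above all other untreated cell types in macrophages, beside 9.07% of all genes. Atp6v1c1 had 15027 against 1705 in neutrophils, and Atp6v1b2 had 22424.5 against 6843.5, also in neutrophils. All 6 kept the 2-fold margin with IL-10 and none with LPS, beside 88.4% and 67.5% of all genes highest in untreated macrophages. Over the 10 subunits the median untreated log2 difference from the highest other cell type was 1.08, close to the limit. With LPS 5 of the 6 still had their highest value in macrophages and Atp6v0c did not.

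Of 8 oligoadenylate synthetases, which are antiviral enzymes induced by interferon, 5 were highest in untreated macrophages, beside 9.07% of all genes. Oas1a had 2176 against 218.5 in sDCs, and Oas3 had 2096 against 554.5 in neutrophils. Of these 5, 2 kept the 2-fold margin with LPS, 2 with both agents and 1 in all 3 treated comparisons. In the same order, 67.5%, 69.6% and 56.9% of all genes highest in untreated macrophages kept it. With LPS Oas1a had 5638 in macrophages and 6735.5 in sDCs. Reads of Oas1a and its close copies may be shared. The 3 Ifit genes held were also highest, with Ifit1 at 293 against 65 and Ifit3 at 314 against 42 in sDCs, and all 3 kept the 2-fold margin in each treated comparison. Of the 18 collagen chains kept, 11 were highest in untreated macrophages and all 11 kept the 2-fold margin in each treated comparison. Over the 18 chains the median untreated log2 difference from the highest other cell type was 3.93, far above the limit. The same share of 9.07% of all genes stands beside the Ifit and collagen counts.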
